A study of Mus musculus with 8 samples.

Results

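Buccal mucosa, the lining of the inner cheek, was compared with the mucosa of the hard palate in tomo-seq data of the mouse mouth. Tomo-seq cuts a tissue block into serial sections and barcodes the RNA of each section, which keeps the position of every transcript along the block. The comparison used 4 of the 8 samples of the series, 2 of buccal mucosa and 2 of hard palate, chosen by the site in their labels. All were from wild-type C57BL/6J mice, with no treatment named, and each had 20 sections of 14 µm, which is 280 µm of tissue. The other 4 samples, from dorsal and ventral tongue, helped to estimate the spread between replicates. They also entered the choice of genes tested and the scaling of counts, but not the contrast itself. The sources used here give no ages, and they number the replicates without naming their animals. The p-values therefore describe only how far these samples scatter, and part of that scatter may be technical.

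The cheek and the hard palate carry different kinds of oral epithelium. Cheek epithelium lines a soft, stretchable wall that lies over the buccinator muscle and minor salivary glands. The hard palate bears the load of chewing: its mucosa is firmly bound to the underlying bone and is shaped into ridges, the rugae. The face forms from several prominences of the embryo, and connective tissue cells of each prominence can keep expressing the transcription factors that patterned it.

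Counts of unique molecular identifiers (UMIs, which count RNA molecules) gave totals of 16878956 and 7830471 for the buccal samples (replicates 1 and 2), against 17743983 and 26376536 for the palate samples. Buccal mucosa replicate 2 stood apart from the other 3 samples. The keratinocyte list, 20 genes shared by squamous epithelia, summed to 16510 and 824 CPM (counts scaled to a common library total) in the buccal samples, against 22260 and 19600 CPM in hard palate. None of the 20 was at 0 in any of the 4 samples. The lining keratin Krt13 had 4308 and 68.3 CPM in buccal mucosa, against 3655 and 2668 CPM in hard palate. Outside buccal mucosa replicate 2, Krt13 reached the upper limit of UMI counts per gene and section. Only its low value in replicate 2 is therefore read. Salivary gland genes ran the other way, with sums of 2616 and 30670 CPM in buccal mucosa, against 1025 and 1490 CPM in hard palate. Of the 39 gland genes in the files, 6 and 2 were at 0 in the buccal samples, against 4 and 8 in the palate samples. Muc5b, a mucin of mucous gland cells, had 2.22 and 7554 CPM in buccal mucosa, against 1.75 and 41.4 CPM in hard palate. Adipocyte genes summed to 1392 and 8523 CPM in buccal mucosa, against 597 and 706 CPM in hard palate. Mitochondrial transcripts made up 2.81% and 7.20% of UMIs in buccal mucosa, against 2.29% and 2.11% in hard palate. The mitochondrial gene mt-Nd1 reached or neared the upper limit of UMI counts in all 4 samples, so this percent may also depend on depth. In buccal mucosa replicate 1 it was 1.69% in section 7 (1874699 UMIs) and 13.6% in section 20 (49837 UMIs). The part of depth in the difference between samples was not tested. In sections 1 to 5 the mean log2 CPM of the keratinocyte genes was 8.65 and 5.22 in buccal mucosa, against 8.66 and 8.54 in hard palate. Markers of the labelled epithelium were thus present but low in buccal mucosa replicate 2, and results that rest on it are also given without it. Across genes, Spearman's rho was 0.838 between the 2 buccal samples, against 0.959 between the 2 palate samples, as a description only. In bulk sections, fewer cells of a type and less RNA per cell cannot be told apart.

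**Figure D1:**
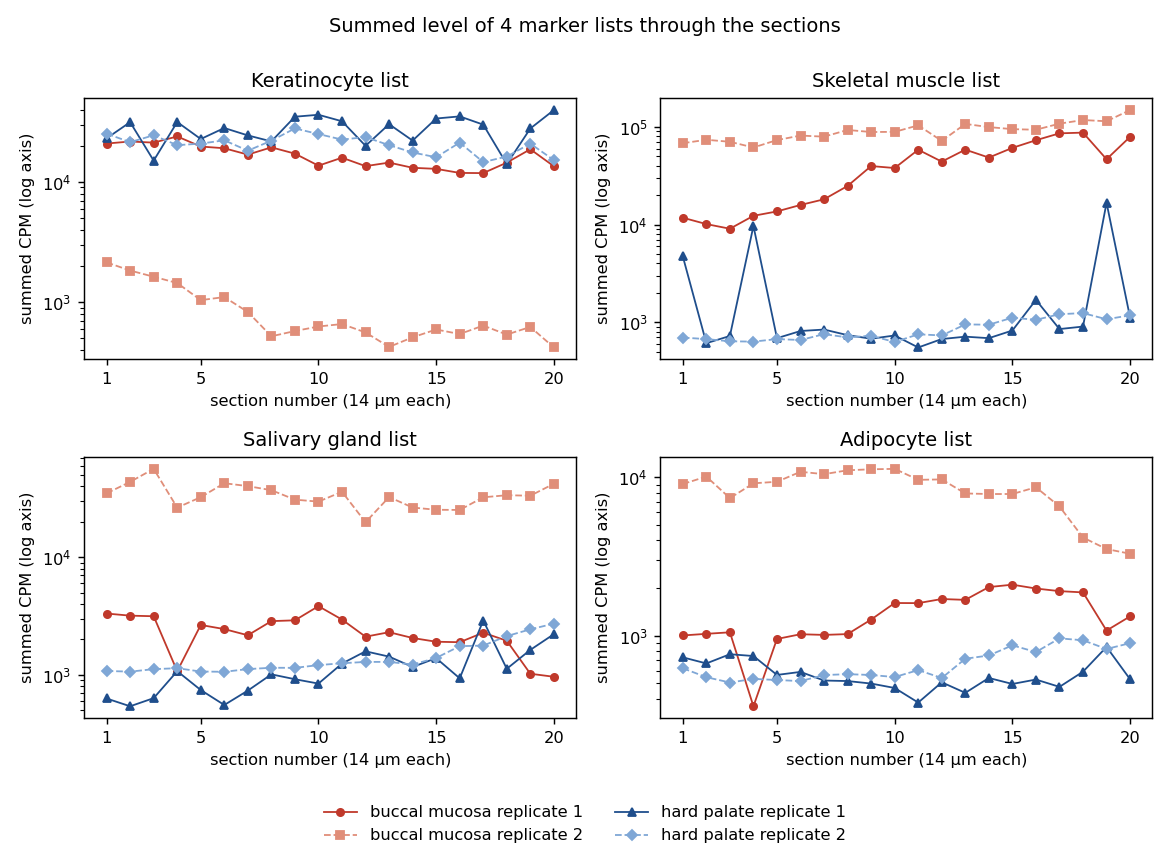
Summed CPM (log axis) of 4 marker lists in each of the 20 sections, for the 2 buccal mucosa and the 2 hard palate samples. Buccal mucosa replicate 2 lies below the other samples for keratinocyte genes and above them for gland and adipocyte genes in every section, while muscle genes are high in both buccal samples.

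A gene was called where its adjusted p was under 0.05 and both buccal samples lay on the same side of both palate samples. Over all 20 sections 923 genes were higher in buccal mucosa, 4.96% of the 18609 tested. Another 231 were lower, 1.24% of those tested. Lack of overlap alone was common: 27.9% of genes lay higher and 24.1% lower in both buccal samples. With buccal mucosa replicate 2 left out, 986 genes were higher and 254 lower (4.99% and 1.29% of those tested), and 765 and 135 of these were also called with it. Leaving out hard palate replicate 1 gave 170 higher and 18 lower, and leaving out hard palate replicate 2 gave 190 and 51. Only 123 of the 1154 called genes stood on any of the 33 gene lists described here. The median log2 fold change over all genes tested was 0.04, and every log2 fold change below is buccal mucosa minus hard palate, with its standard error (SE).

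Skeletal muscle genes made up the largest share of any list that was higher in buccal mucosa. Of 55 on the list 49 were tested, and 44 of these rose while none fell, against 4.96% and 1.24% of all genes tested. Their fitted log2 fold changes ran from 3.07 to 10.42 (the highest that of Myod1, at 0 in hard palate, so that it depends on the prior count), and the median over the 49 was 7.11, against 0.04 over all genes. The list summed to 34220 and 89020 CPM in buccal mucosa, which is 3.42% and 8.90% of all UMIs, against 1507 and 903 CPM in hard palate. For orientation, it summed to 34070 and 33260 CPM in dorsal tongue and to 54900 and 49320 CPM in ventral tongue. The 5 tested genes that were not called were Acta1, Myh4, Sln, Tnni1 and Tpm3. Left with buccal mucosa replicate 1 alone, 43 of 51 tested members rose, with a median of 6.19.

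The 10 largest rises among genes of at least 50 CPM in buccal mucosa, without overlap also in sections 1 to 5, included several muscle genes. Pvalb, which encodes the calcium buffer parvalbumin of fast fibres, had 391 and 2991 CPM in buccal mucosa, against 3.16 and 0.616 CPM in hard palate (log2 fold change 9.82, SE 1.46, adjusted p = 0.0147). Mybpc2, the fast myosin-binding protein C, had 53.1 and 295 CPM in buccal mucosa, against 0.437 and 0.0648 CPM in hard palate. Casq1, the calcium store protein calsequestrin of fast muscle, had 227 and 828 CPM in buccal mucosa, against 1.41 and 0.616 CPM in hard palate (9.03, SE 0.91, adjusted p = 0.00488). In each of these genes the lower buccal sample was replicate 1, and even that sample was far above both palate samples. Other rises among the 10 largest were those of Mylk2, the myosin light chain kinase of skeletal muscle, and Trim63, a ubiquitin ligase of muscle wasting. Mylk2 had 25.1 and 105 CPM in buccal mucosa, against 0.243 and 0.0324 CPM in hard palate. Trim63 had 39.1 and 150 CPM in buccal mucosa, against 0.388 and 0.0324 CPM in hard palate. Hjv (haemojuvelin, a BMP co-receptor made by muscle and liver) had 176 and 506 CPM in buccal mucosa, against 1.17 and 0.454 CPM in hard palate. Rpl3l, the muscle form of a ribosomal protein, had 169 and 375 CPM in buccal mucosa, against 1.12 and 0.292 CPM in hard palate. Hhatl, Sypl2 and 3425401B19Rik completed the 10, with log2 fold changes of 9.43, 8.70 and 8.48. All 10 passed the threshold without buccal mucosa replicate 2 as well.

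The regulators of the muscle lineage were found in buccal mucosa at low levels and were at or near 0 in hard palate. Myod1, which commits cells to the lineage, had 113 and 96 UMIs in buccal mucosa, against 0 and 0 in hard palate. That made it at least 140.8-fold higher, with 3 UMIs over the group as the limit that a count of 0 allows. Myf6, active in differentiated fibres, had 343 and 357 UMIs in buccal mucosa, against 4 and 0 in hard palate. Myog, needed for fusion of muscle precursors, had 149 and 19 UMIs in buccal mucosa, against 1 and 0 in hard palate. Pax7, the marker of satellite cells (the stem cells of muscle), had 35 and 19 UMIs in buccal mucosa, against 2 and 8 in hard palate (3.51, SE 0.57, adjusted p = 0.0197).

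The muscle genes were spread unevenly through the sections. In buccal mucosa replicate 1 the list summed to 11410 CPM in sections 1 to 5, 26220 in sections 6 to 10, 52240 in sections 11 to 15 and 78280 in sections 16 to 20. Replicate 2 had 67860, 86610, 89690 and 109800 CPM in the same sections. In both buccal samples the sum of the list was thus lowest in sections 1 to 5 and highest in sections 16 to 20. Single genes of replicate 1 differed between sections 11 to 15 and 16 to 20. Casq1 had 419 and then 351 CPM, while Pvalb had 701 and then 885 CPM. The last sections of replicate 1 were shallow, with 36196 UMIs in section 19. How far the upper limit of UMI counts per gene and section shaped the sum there was not tested. Hard palate replicate 2 stayed between 629 and 1243 CPM in every section. Hard palate replicate 1 reached 4730, 9684 and 16750 CPM in sections 1, 4 and 19. Of the 44 genes that rose, 41 were tested in sections 1 to 5 alone, and 40 lay higher there in both buccal samples. The share was 22.7% over all genes, but 767 of the 801 genes called higher also lay higher there. Calling had already required no overlap over all 20 sections, which include sections 1 to 5, so this is no independent repeat. None of the 46 list members tested there passed the threshold.

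Since these genes moved together, their promoters were read from RefSeq (GRCm38.p6) as the 250 bases before each transcription start. Of the 44 genes 34 matched, with 38 windows. CAGCTG, the core of the E-box that myogenic factors such as Myod1 bind, stood in 44.7% of these windows, against 13% of all 32841 windows. CTANNNNTAG, which MEF2 factors bind, stood in 13.2% of them, against 3.2% of all windows. TATAAA, a general core promoter box, stood in 10.5%, against 12.4% of all windows. Both strands were searched, CTANNNNTAG and TATAAA can share letters, and a match is a description of the letters, not a site. Shown are the windows of the 3 genes with 2 matches to the first 2 motifs, and of Xirp2, which had the smallest p among genes with 1 match. Those matches are in capitals, and the windows show how the motifs lie before genes of the contractile apparatus, glycogen use and the motor end plate.
Myoz2, chr3:123034988-123035237, minus strand: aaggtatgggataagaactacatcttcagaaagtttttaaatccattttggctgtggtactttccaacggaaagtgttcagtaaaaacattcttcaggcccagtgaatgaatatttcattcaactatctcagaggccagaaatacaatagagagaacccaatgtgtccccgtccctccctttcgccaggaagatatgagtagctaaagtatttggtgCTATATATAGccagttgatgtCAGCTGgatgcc
Pygm, chr19:6384158-6384407, plus strand: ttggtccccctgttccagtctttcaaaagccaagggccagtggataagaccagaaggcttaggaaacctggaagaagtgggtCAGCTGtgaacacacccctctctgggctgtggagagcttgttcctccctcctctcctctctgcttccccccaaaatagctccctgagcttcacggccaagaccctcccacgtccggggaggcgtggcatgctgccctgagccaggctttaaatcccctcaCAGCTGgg
Chrna1, chr2:73580339-73580588, minus strand: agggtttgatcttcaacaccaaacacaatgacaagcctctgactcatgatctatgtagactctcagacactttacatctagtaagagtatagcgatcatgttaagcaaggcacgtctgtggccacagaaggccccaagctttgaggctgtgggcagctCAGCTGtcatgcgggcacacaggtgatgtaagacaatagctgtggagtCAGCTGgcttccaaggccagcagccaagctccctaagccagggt
Xirp2, chr2:67445752-67446001, plus strand: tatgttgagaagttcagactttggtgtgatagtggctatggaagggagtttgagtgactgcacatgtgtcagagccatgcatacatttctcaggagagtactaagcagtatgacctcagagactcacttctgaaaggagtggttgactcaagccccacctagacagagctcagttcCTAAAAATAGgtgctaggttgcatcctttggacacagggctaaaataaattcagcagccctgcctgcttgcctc
Myoz2 encodes a protein of the Z-disc and held both motifs. It had 30.6 and 52.1 CPM in buccal mucosa, against 0.485 and 0.389 CPM in hard palate (6.55, SE 0.43, adjusted p = 0.00418). Pygm, the glycogen phosphorylase of muscle, had 1012 and 2259 CPM in buccal mucosa, against 15.04 and 5.96 CPM in hard palate. Chrna1, a subunit of the acetylcholine receptor at the motor end plate, had 9.75 and 3.67 CPM in buccal mucosa, against 0.243 and 0.162 CPM in hard palate. Xirp2, an actin-binding protein of muscle attachment sites, had 273 and 548 CPM in buccal mucosa, against 3.59 and 2.27 CPM in hard palate.

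**Figure D2:**
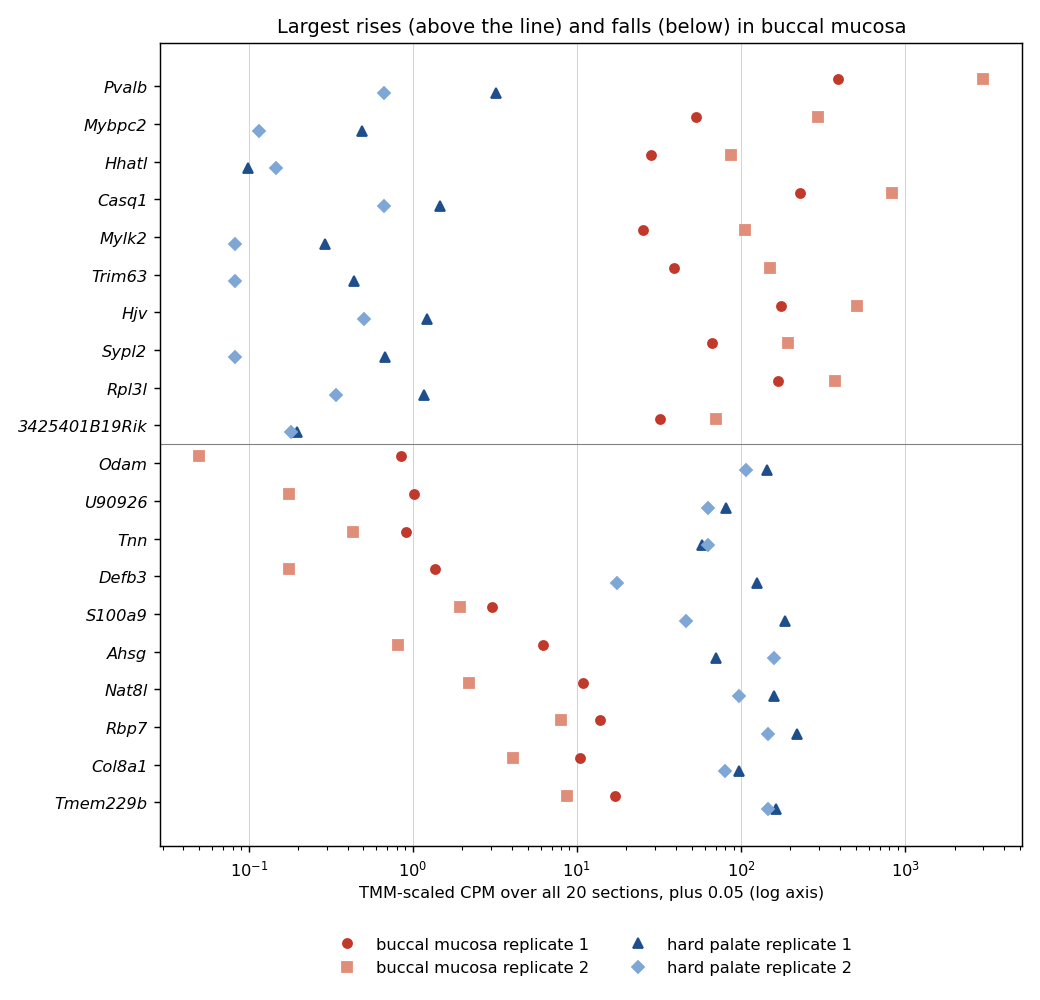
TMM-scaled CPM plus 0.05 (log axis) of the 10 genes with the largest rises and the 10 with the largest falls in buccal mucosa, 1 point a sample. No buccal point overlaps a palate point in any of the 20 genes. For several genes, among them Defb3, Pvalb, Mybpc2, Mylk2 and S100a9, the 2 samples of the higher site lie far apart.

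Facial patterning transcription factors changed in both directions. Of 75 tested 9 rose and 7 fell, against 4.96% and 1.24% of all genes, and the median over the list was 0.00. Tbx15, a T-box factor of the craniofacial and limb skeleton, had 92.5 and 194 CPM in buccal mucosa, against 3.01 and 2.27 CPM in hard palate (5.76, SE 0.51, adjusted p = 0.00449). Its level was 29.8 and 142 CPM in sections 1 to 5 of buccal mucosa, against 2.32 and 1.34 CPM in those of hard palate. Zic1, a zinc finger factor, had 90 and 76 UMIs in buccal mucosa, against 0 and 1 in hard palate. The homeobox gene Emx2 had 67 and 71 UMIs in buccal mucosa, against 0 and 1 in hard palate. Both were thus confined to the buccal samples apart from single UMIs. Foxc1, a forkhead factor of the neural crest and vessels, had 41.5 and 30.5 CPM in buccal mucosa, against 12.5 and 14.7 CPM in hard palate (1.41, SE 0.27, adjusted p = 0.0313). Hic1 averaged 22.7 ± 3.06 CPM in buccal mucosa and 4.74 ± 3.20 CPM in hard palate (SD, n = 2 each).
Hand2, Nkx2-5 and Foxl2 also rose, all with under 1 CPM in hard palate. Hand2, a factor of the lower jaw, had 2.28 and 1.52 CPM in buccal mucosa, against 0.534 and 0.227 CPM in hard palate. Nkx2-5, best known from the heart, had 13 and 17 UMIs in buccal mucosa, against 2 and 0 in hard palate.

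The 7 factors that fell in buccal mucosa included several known from the palate and upper face. Alx1, an aristaless-type homeobox factor of the midface, had 0.285 and 0.253 CPM in buccal mucosa, against 6.02 and 10.5 CPM in hard palate (−4.89, SE 0.50, adjusted p = 0.00524). Runx2, the master regulator of bone formation, had 4.05 and 10.5 CPM in buccal mucosa, against 33.6 and 43.7 CPM in hard palate. In sections 1 to 5 Runx2 had 6.37 and 15.16 CPM in buccal mucosa, against 27.76 and 5.65 CPM in hard palate, so the sites overlapped there. Of the 7 factors, 6 lay lower in both buccal samples in those sections, against 24% of all genes. Of the 198 genes called lower and tested there, 194 did so. The calls had already required no overlap over all 20 sections, so this is no independent repeat. Gli3, which transmits and represses Hedgehog signals, had 6.96 and 7.84 CPM in buccal mucosa, against 37.3 and 32.0 CPM in hard palate. Meis2, a cleft palate gene, had 50.3 and 40.2 CPM in buccal mucosa, against 167 and 119 CPM in hard palate. Foxp2 had 18.9 and 22.4 CPM in buccal mucosa, against 105 and 57.9 CPM in hard palate. Foxf2 had 0.912 and 0.379 CPM in buccal mucosa, against 3.45 and 5.74 CPM in hard palate. Without buccal mucosa replicate 2, Meis2, Foxp2 and Foxf2 missed the threshold, with adjusted p = 0.0635, 0.0526 and 0.0609. So did Nkx2-5, Foxl2 and Hic1 among the factors that rose, with adjusted p = 0.0507, 0.111 and 0.0767.

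Several factors of the oral epithelium followed the keratinocyte genes in being low in buccal mucosa replicate 2. Tfap2b had 26.8 and 3.03 CPM in buccal mucosa, against 183 and 173 CPM in hard palate, with adjusted p = 0.0640, and 0.00416 without replicate 2. Sim2 had 19.6 and 0.379 CPM in buccal mucosa, against 94.0 and 104 CPM in hard palate, with adjusted p = 0.157, and 0.0118 without replicate 2. Pax9, a paired-box factor of the palate and teeth, was also lower in replicate 2 than in replicate 1, but lay above both palate samples. It had 127 and 29.8 CPM in buccal mucosa, against 21.4 and 24.9 CPM in hard palate, with adjusted p = 0.136. The homeobox gene Nkx2-3 was singled out after its values were seen. It had 2443 UMIs in buccal mucosa replicate 1 and 0 in replicate 2, against 2 and 0 in the hard palate samples. Barx2 had a like pattern, with 275 and 4.68 CPM in buccal mucosa, against 22.8 and 22.7 CPM in hard palate. The buccal samples of Barx2 lay on either side of the palate samples, and those of Nkx2-3 overlapped with them at 0, so neither was called. Six3, also chosen after its values were seen and a factor of the forebrain and eye, had 1 and 0 UMIs in buccal mucosa but 14.9 and 14.0 CPM in hard palate (adjusted p = 0.00863).

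**Figure D3:**
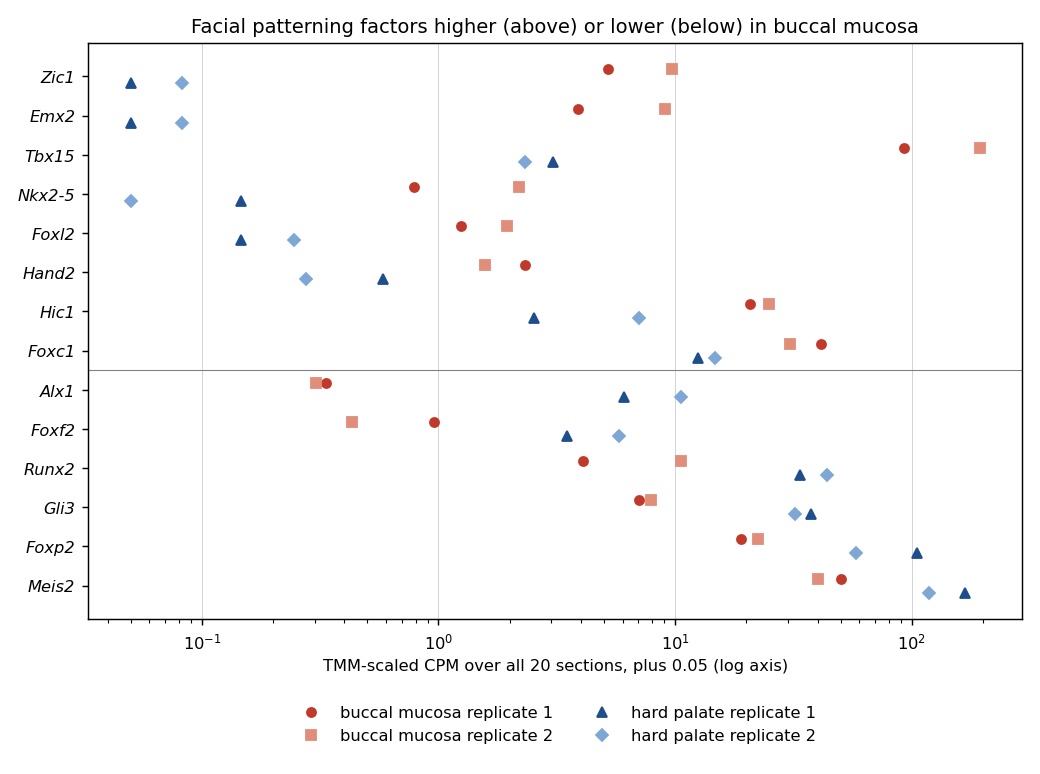
TMM-scaled CPM plus 0.05 (log axis) of 14 of the facial patterning factors that rose (above the line) or fell (below it) in buccal mucosa, 1 point a sample. Zic1 and Emx2 lie near 0 in both palate samples, and Tbx15 has the highest buccal level of those shown that rose.

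Bone and cartilage genes were mostly low at both sites, and 6 of the 25 tested fell in buccal mucosa while 1 rose, against 1.24% and 4.96% of all genes. Left with buccal mucosa replicate 1 alone, 8 of 28 fell and 2 rose. Col11a1, a collagen of cartilage, had 0.798 and 0.632 CPM in buccal mucosa, against 12.7 and 44.8 CPM in hard palate (−5.29, SE 0.87, adjusted p = 0.0200). Acan, the cartilage proteoglycan aggrecan, had 0.114 and 0.126 CPM in buccal mucosa, against 4.85 and 2.53 CPM in hard palate. Col2a1, the main cartilage collagen, had 0 and 1 UMIs in buccal mucosa, against 75 and 65 in hard palate. Ibsp (bone sialoprotein) had 0 and 1 UMIs in buccal mucosa, against 34 and 170 in hard palate. Mmp13, a collagenase of bone growth, fell too. In hard palate Acan was highest in the first of the 4 section groups, with 10.01 and 5.13 CPM in sections 1 to 5, and lowest in sections 16 to 20, with 0.505 and 0.969 CPM. Bglap3, an osteocalcin-related gene, rose instead, with 46.6 and 58.2 CPM in buccal mucosa, against 4.17 and 6.32 CPM in hard palate (3.32, SE 0.32, adjusted p = 0.00480). Its neighbours Bglap and Bglap2 are nearly identical in sequence, so that reads may have been shared between them.

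Genes of the tooth-facing epithelium were found in the hard palate samples. Odam, a protein of the junctional epithelium that seals gum to tooth, had 0.798 and 0 CPM in buccal mucosa, against 143 and 108 CPM in hard palate (−8.00, SE 1.66, adjusted p = 0.0396). U90926, a transcript that lies on the same chromosome, had 0.969 and 0.126 CPM in buccal mucosa, against 80.8 and 62.9 CPM in hard palate. Of 6 list members tested these 2 fell, against 1.24% of all genes. Of the 6, 5 lay lower in both buccal samples, against 24.1% of all genes. Odaph, an enamel maturation gene chosen after its values were seen, had no UMI in either buccal sample, against 4.47 and 4.63 CPM in hard palate, at least 38.7-fold lower with 3 UMIs over the group as the limit. Odam was not evenly spread in hard palate. Hard palate replicate 1 had 182, 148, 181 and 145 CPM in sections 1 to 5, 6 to 10, 11 to 15 and 16 to 20, while replicate 2 had 9.92, 118, 184 and 166 CPM. Without buccal mucosa replicate 2, Odam kept an adjusted p of 0.0436 and U90926 had 0.0672.

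Tnn and Rbp7 were the 2 genes lower in buccal mucosa both over all sections and in sections 1 to 5 alone. These calls in sections 1 to 5, and that of Lrmp, were lost in reads (adjusted p = 0.0712 for Tnn and Rbp7, and 0.0973 for Lrmp). They were also lost on leaving out any palate or tongue sample, where adjusted p ran from 0.127 to 0.415. Tnn (tenascin-N, a matrix protein of bone-associated and periodontal connective tissue) had 0.855 and 0.379 CPM in buccal mucosa, against 58.0 and 63.1 CPM in hard palate (−6.51, SE 0.65, adjusted p = 0.00488). In sections 1 to 5 it had 1.34 and 0.960 CPM in buccal mucosa, against 71.2 and 69.6 CPM in hard palate (−5.86, adjusted p = 0.0311). Rbp7, a retinol-binding protein, had 13.8 and 7.97 CPM in buccal mucosa, against 220 and 147 CPM in hard palate (−4.06, SE 0.41, adjusted p = 0.00488). In sections 1 to 5 it had 15.3 and 13.4 CPM in buccal mucosa, against 302 and 225 CPM in hard palate (−4.19, adjusted p = 0.0311). Both palate samples had Tnn in all 20 sections, whereas buccal mucosa replicates 1 and 2 had a Tnn UMI in 12 and 3 sections. Lrmp, a membrane protein of the endoplasmic reticulum, was the 1 gene higher in buccal mucosa in sections 1 to 5. It had 48.9 and 36.5 CPM there in buccal mucosa, against 2.03 and 1.17 CPM in hard palate (4.70, adjusted p = 0.0412). Over all sections it had 30.6 and 27.7 CPM in buccal mucosa, against 2.91 and 2.43 CPM in hard palate, a difference larger than the spread between replicates (3.45, SE 0.28, adjusted p = 0.00418).

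**Figure D4:**
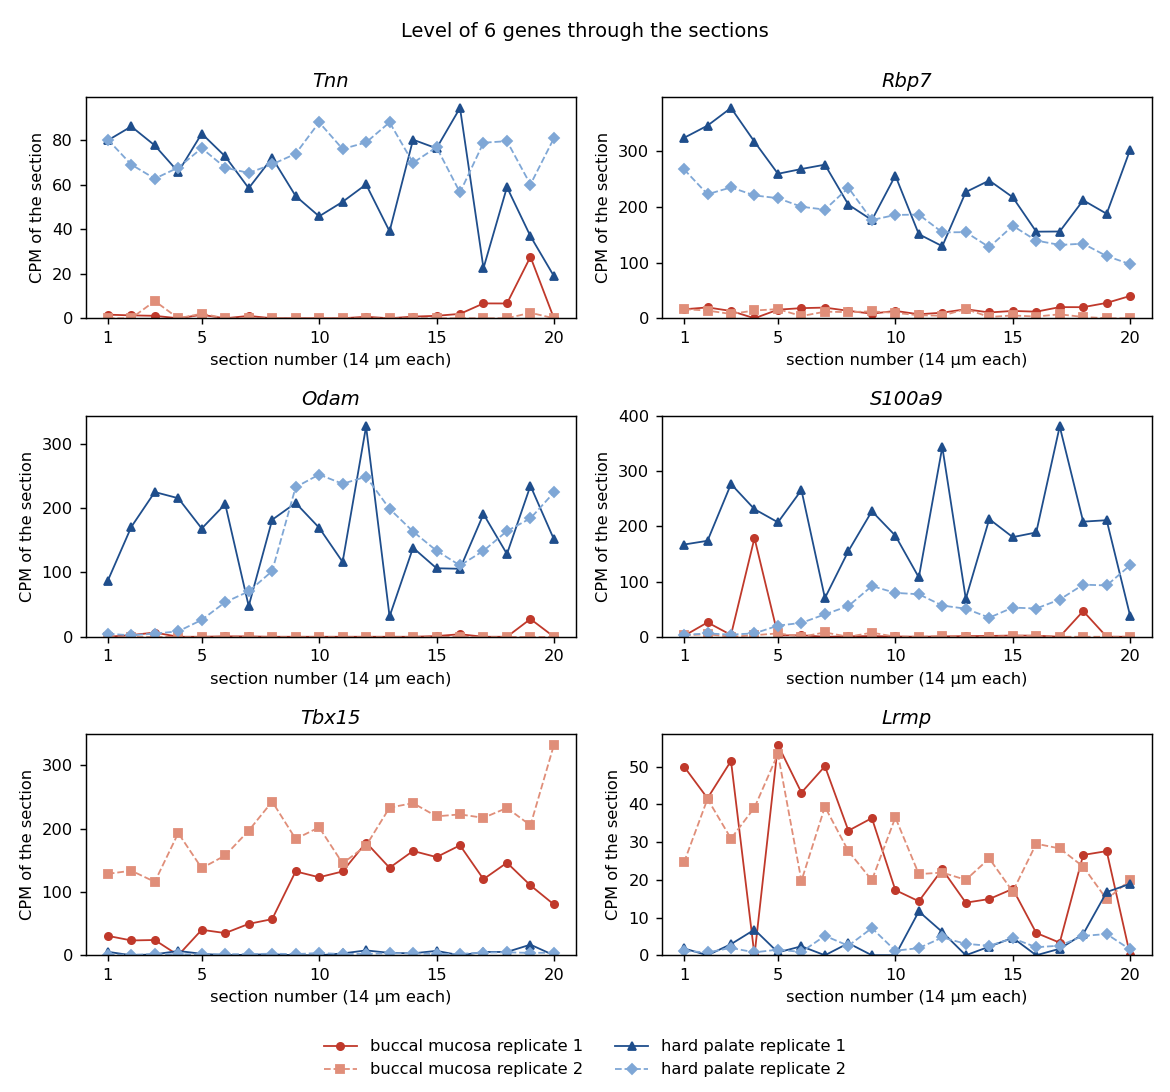
CPM of each section for 6 genes in the 2 buccal mucosa and the 2 hard palate samples. Tnn and Rbp7 are lower in buccal mucosa than in hard palate in each of the 20 sections, with Tnn at 27.6 CPM in section 19 of buccal mucosa replicate 1, Tbx15 stays near 0 in hard palate, and Odam and S100a9 start low in hard palate replicate 2 but not in replicate 1.

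The repeat on sections 1 to 5, 70 µm of tissue, thus called 1 gene higher and 2 lower of 14317 tested, which is 0.00698% and 0.014%. At an unadjusted p under 0.05 there were 2842 genes, and DESeq2 called 962 higher and 274 lower. Of the 801 higher genes tested in sections 1 to 5, 767 lay higher in both buccal samples, against 22.7% of all genes, and 800 had the same sign. Of the 198 lower genes tested there 194 lay lower in both, against 24% of all genes, and all 198 had the same sign. Sections 1 to 5 are part of the 20, so these counts are no independent repeat. With buccal mucosa replicate 2 left out, the repeat called 224 higher and 60 lower (1.48% and 0.396% of those tested).

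Antimicrobial and alarm genes were lower in buccal mucosa more often than higher. Of 36 tested 5 fell and 1 rose, against 1.24% and 4.96% of all genes. S100a9, a subunit of the antimicrobial protein calprotectin, had 2.97 and 1.897 CPM in buccal mucosa, against 185 and 46.4 CPM in hard palate (−5.54, SE 1.13, adjusted p = 0.0374). Its partner S100a8 had 6.22 and 3.03 CPM in buccal mucosa, against 350 and 30.8 CPM in hard palate, and missed the threshold with adjusted p = 0.0564. Defb3, a beta-defensin, had 1.31 and 0.126 CPM in buccal mucosa, against 125 and 17.4 CPM in hard palate (−6.44, SE 1.33, adjusted p = 0.0393). The neutrophil attractants Cxcl1 and Cxcl2 fell too. Cxcl1 had 2.57 and 1.26 CPM in buccal mucosa, against 20.7 and 14.2 CPM in hard palate (−3.15, SE 0.46, adjusted p = 0.0141). In sections 1 to 5 Cxcl1 had 3.876 and 0.523 CPM in buccal mucosa, against 15.65 and 2.395 CPM in hard palate, so the sites overlapped there. Bpifa1, an airway and nasal secretory protein, had 0.399 and 0.126 CPM in buccal mucosa, against 35.8 and 16.6 CPM in hard palate. Cxcl3, chosen after its values were seen, had no UMI in either buccal sample, against 4.17 and 4.99 CPM in hard palate, at least 39.5-fold lower. Lyz1, a lysozyme of secretory cells, rose, with 10.2 and 56.0 CPM in buccal mucosa, against 1.504 and 1.26 CPM in hard palate. In the hard palate S100a9, S100a8 and Defb3 were all several times higher in replicate 1. Without buccal mucosa replicate 2, Defb3, S100a9 and Cxcl2 missed the threshold, with adjusted p = 0.0824, 0.0895 and 0.0669.

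The other large falls were of genes with varied roles. Ahsg, a mineral-binding serum protein (fetuin), had 6.16 and 0.759 CPM in buccal mucosa, against 70.1 and 158 CPM in hard palate. Nat8l, which makes N-acetylaspartate, had 10.9 and 2.15 CPM in buccal mucosa, against 158 and 96.6 CPM in hard palate. Col8a1, a short-chain collagen, had 10.4 and 4.05 CPM in buccal mucosa, against 96.6 and 79.7 CPM in hard palate. Tmem229b had 16.99 and 8.60 CPM in buccal mucosa, against 163 and 146 CPM in hard palate. All 4 fell by at least 3.58 on the log2 scale and passed the threshold without buccal mucosa replicate 2.

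Among signalling genes the BMP and TGF-beta list fell most often, with 5 of 39 lower and 1 higher, against 1.24% and 4.96% of all genes. Bmp7, a ligand of the BMP pathway, had 16.1 and 6.32 CPM in buccal mucosa, against 142 and 92.5 CPM in hard palate (−3.37, SE 0.50, adjusted p = 0.0147). The related ligand Bmp2 had 26.6 and 5.82 CPM in buccal mucosa, against 92.8 and 78.2 CPM in hard palate, with adjusted p = 0.0827. Tgfb2, a TGF-beta ligand of palate fusion, had 14.9 and 14.5 CPM in buccal mucosa, against 34.9 and 37.7 CPM in hard palate. Ltbp2, an extracellular matrix protein related to the TGF-beta binding proteins, had 0.513 and 0.885 CPM in buccal mucosa, against 5.05 and 8.20 CPM in hard palate. Id2 and Id3, direct transcriptional targets of BMP signals, fell by 1.44 and 1.37 on the log2 scale, and Id2 missed the threshold without buccal mucosa replicate 2 (adjusted p = 0.0708). Id3 had 97.0 and 105 CPM in buccal mucosa, against 278 and 247 CPM in hard palate. Id1, another such target, had 292 and 60.2 CPM in buccal mucosa, against 805 and 682 CPM in hard palate, with adjusted p = 0.123. Chrdl2, a BMP antagonist, rose, with 0.969 and 1.01 CPM in buccal mucosa, against 0.0485 and 0.0324 CPM in hard palate.

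In the EGF and FGF list 3 of 34 rose and 1 fell, near the 4.96% and 1.24% of all genes. Epgn (epigen, an EGF receptor ligand) had 3.02 and 1.01 CPM in buccal mucosa, against 30.2 and 40.4 CPM in hard palate (−4.07, SE 0.57, adjusted p = 0.0121). Fgfrl1, an FGF receptor without a kinase domain, had 19.6 and 40.8 CPM in buccal mucosa, against 4.42 and 3.63 CPM in hard palate (2.91, SE 0.41, adjusted p = 0.0124). Fgf9 and Fgf13 also rose, by 2.19 and 2.55 on the log2 scale, and Fgf9 had adjusted p = 0.0501 without buccal mucosa replicate 2. Of the Wnt list only Lgr6, an R-spondin receptor of epithelial stem cells, fell among 41 tested, and none rose. Lgr6 had 4.05 and 3.54 CPM in buccal mucosa, against 18.1 and 15.8 CPM in hard palate (−2.15, SE 0.31, adjusted p = 0.0124). Among 37 Hedgehog, retinoid and Notch genes, Aldh1a3, an enzyme that makes retinoic acid, fell, with 0.855 and 1.77 CPM in buccal mucosa, against 9.32 and 12.9 CPM in hard palate. Dll4, a Notch ligand of endothelium, rose, with 9.18 and 11.8 CPM in buccal mucosa, against 3.49 and 3.31 CPM in hard palate.

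Epithelial genes could be compared only as far as the low keratinocyte level of buccal mucosa replicate 2 allowed. None of 20 keratinocyte genes, 23 soft keratins, 28 barrier genes or 29 desmosome and junction genes was called by edgeR over all sections. With buccal mucosa replicate 1 alone, the soft keratins Krt23 and Krt36 rose, by 2.29 and 3.18 on the log2 scale. Krt16, Krt17 and Krt75 fell, with log2 fold changes of −1.99, −1.92 and −4.84. The median over the soft keratins was −0.33 over all sections and 0.22 in sections 1 to 5. Among barrier genes Smpd3 and Klk7 fell, and among desmosome genes Dsc1 fell. The medians of these lists were 0.29 and −0.03 over all sections, and 0.33 and 0.07 in sections 1 to 5. These falls are given for all sections only. Krt16 and Krt17, keratins of stressed and fast-growing epithelium, lay lower in both buccal samples. Krt16 had 758 and 27.6 CPM in buccal mucosa, against 3441 and 2632 CPM in hard palate (−2.95, SE 1.27, adjusted p = 0.197). Krt17 had 521 and 20.5 CPM in buccal mucosa, against 2194 and 1795 CPM in hard palate (−2.88, SE 1.23, adjusted p = 0.194). Without buccal mucosa replicate 2 both passed, with log2 fold changes of −1.99 and −1.92 and adjusted p = 0.0222 and 0.0215. Counts of UMIs have an upper limit per gene and section, set by the number of different UMIs, which compresses abundant keratins. In reads, which have no such limit, the log2 fold change of Krt16 was −6.21 and that of Krt17 −3.94, with adjusted p = 0.0917 and 0.142. Krt76, a keratin of the palate, had 1690 and 42.1 CPM in buccal mucosa, against 3760 and 2661 CPM in hard palate, with adjusted p = 0.398. Krt4, the partner of Krt13, had 4110 and 21.8 CPM in buccal mucosa, against 2098 and 2515 CPM in hard palate. Krt4, Krt13 and Krt76 reached or neared the UMI limit in buccal mucosa replicate 1 and in both palate samples. The order of those samples cannot be read from UMIs, and the adjusted p of Krt76 carries the same limit. Only the low values of buccal mucosa replicate 2 are read for these keratins. The other keratins followed by rule were Krt1, Krt2, Krt5, Krt6a, Krt6b, Krt10 and Krt14, with adjusted p from 0.314 for Krt14 to 0.806 for Krt1. Of these, Krt6a, Krt6b, Krt10 and Krt14 also reached the UMI limit in hard palate replicate 1, and Krt6a and Krt6b in replicate 2. Krt10 and Krt14 neared it in hard palate replicate 2, with up to 3972 and 4043 UMIs in a section. Krt5 had up to 4094 and 3978 UMIs in a section of the palate samples. The differences of these keratins may therefore be compressed.

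Of 48 cornified envelope genes 2 fell and none rose, against 1.24% and 4.96% of all genes. With buccal mucosa replicate 1 alone, 14 fell and 1 rose. Those 14 included 9 Lce1 genes, which encode late envelope proteins, by 1.89 to 2.74 on the log2 scale. They also included Flg (filaggrin, which bundles keratin filaments) and Crnn (cornulin). The Lce1 genes are much alike in sequence, so that reads may have been shared between them. The median log2 fold change over the list, without buccal mucosa replicate 2, was −0.32 over all sections and −0.09 in sections 1 to 5. These falls over all sections are therefore not read for sections 1 to 5. Ivl (involucrin, a scaffold of the envelope) had 0.456 and 0.759 CPM in buccal mucosa, against 7.28 and 8.26 CPM in hard palate (−3.72, SE 0.59, adjusted p = 0.0176). Sprr2e had 1 and 0 UMIs in buccal mucosa, against 218 and 277 UMIs in hard palate, and reads of the near-identical Sprr2 genes may have been shared. Both buccal values of Ivl were under 1 CPM, with at most 2 UMIs in a section. The order of the 2 buccal replicates is therefore not read. Maf, a factor of keratinocyte differentiation, had 223 and 84.7 CPM in buccal mucosa, against 806 and 681 CPM in hard palate, with adjusted p = 0.0593. None of 30 cell cycle genes was called by edgeR, and 7 of them lay lower in both buccal samples, against 24.1% of all genes.

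Connective tissue lists held single changes rather than a common direction. Of 55 fibroblast and matrix genes 3 rose and 2 fell, 1 of them Tnn, near the 4.96% and 1.24% of all genes. Dpp4, a marker of fibroblasts near the surface of skin, had 40.0 and 16.3 CPM in buccal mucosa, against 3.35 and 5.15 CPM in hard palate (2.73, SE 0.49, adjusted p = 0.0274). Tnxb (tenascin-X, which gives connective tissue its elasticity) had 55.7 and 63.5 CPM in buccal mucosa, against 8.396 and 13.1 CPM in hard palate (2.47, SE 0.35, adjusted p = 0.0123). Vcan, the proteoglycan versican, fell, with 9.01 and 6.32 CPM in buccal mucosa, against 28.7 and 35.2 CPM in hard palate. Igfbp5, which binds insulin-like growth factors, had 492 and 929 CPM in buccal mucosa, against 122 and 189 CPM in hard palate (2.19, SE 0.46, adjusted p = 0.0396). Lrig1, a restraint on EGF receptor signals and a stem cell marker, had 18.1 and 49.1 CPM in buccal mucosa, against 3.79 and 5.90 CPM in hard palate. The imprinted RNA H19, chosen after its values were seen, had 1069 and 638 CPM in buccal mucosa, against 69.7 and 70.2 CPM in hard palate (3.61, SE 0.46, adjusted p = 0.00863).

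Some genes of vessels, fat and immune cells rose, and these counts stand against 4.96% higher and 1.24% lower of all genes. Of 18 smooth muscle and pericyte genes 4 rose: Des, Synpo2, Kcnj8 and Abcc9. Des (desmin) is shared with skeletal muscle and had 1192 and 2870 CPM in buccal mucosa, against 22.1 and 9.36 CPM in hard palate. Kcnj8, a potassium channel of pericytes, had 15.96 and 28.3 CPM in buccal mucosa, against 1.504 and 3.89 CPM in hard palate. Of 25 endothelial and lymphatic genes Cdh5, Esam and Eng rose, and Eng had adjusted p = 0.0580 without buccal mucosa replicate 2. Cdh5 (VE-cadherin) had 34.6 and 78.6 CPM in buccal mucosa, against 9.61 and 12.1 CPM in hard palate (2.38, SE 0.46, adjusted p = 0.0325). Of 20 adipocyte genes 6 rose, among them Gpd1, Plin4 and the fatty acid transporter Cd36, some of which muscle expresses too. The median over the adipocyte list was 4.58, and 0.32 without buccal mucosa replicate 2. For smooth muscle and pericyte genes these medians were 1.83 and 0.67. Cd36 had 84.0 and 371 CPM in buccal mucosa, against 3.45 and 6.48 CPM in hard palate (5.51, SE 0.80, adjusted p = 0.0131). The fat cell hormone Adipoq had 0.684 and 364 CPM in buccal mucosa, against 1.02 and 9.69 CPM in hard palate, and was not called. Of 34 immune genes Cd163, Csf1r and Ighm rose, and S100a9 fell. Cd163, a scavenger receptor of macrophages, had 21.1 and 27.6 CPM in buccal mucosa, against 0.922 and 4.57 CPM in hard palate (3.13, SE 0.68, adjusted p = 0.0466). None of the 3 immune rises passed without buccal mucosa replicate 2, with adjusted p from 0.0608 to 0.0851. None of 30 salivary gland genes was called by edgeR, and the list's median of 4.43 became 0.15 without replicate 2. The part of gland, fat and muscle RNA in replicate 2 in these results was not tested.

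A few hair and sebaceous genes rose in buccal mucosa. Krt79, a keratin of hair follicle and sebaceous ducts, had 14.3 and 86.2 CPM in buccal mucosa, against 1.17 and 2.04 CPM in hard palate (4.95, SE 1.04, adjusted p = 0.0415). Krt35, a hair keratin, had 3.59 and 7.71 CPM in buccal mucosa, against 0.631 and 0.259 CPM in hard palate (3.67, SE 0.55, adjusted p = 0.0147). Of 20 hair and skin appendage genes 3 rose, the other being the hair keratin Krt31, and of 14 sebaceous and Merkel genes Plin5, Mgst1 and Krt79 rose, against 4.96% of all genes. In buccal mucosa replicate 2 Krt79 had 285.5 CPM in sections 1 to 5 and 3.91 CPM in sections 16 to 20. Krt35 and Krt31 had UMIs in 3 and 1 of the 20 sections of that sample, against 19 and 15 of buccal mucosa replicate 1. Of 10 taste genes Car4, a carbonic anhydrase of sour taste cells that muscle capillaries also carry, rose, with 3.08 and 8.60 CPM in buccal mucosa, against 0.0485 and 0 CPM in hard palate.

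Of the remaining lists, hemidesmosome and basement membrane genes had 2 of 23 higher and 1 lower, near the 4.96% and 1.24% of all genes. Col4a1, the main basement membrane collagen, had 54.5 and 197 CPM in buccal mucosa, against 16.6 and 19.9 CPM in hard palate (2.78, SE 0.61, adjusted p = 0.0467). Fras1 fell and Frem2 rose, which anchor epithelium in the same matrix complex, but both missed the threshold with buccal mucosa replicate 1 alone (adjusted p = 0.0850 and 0.0802). Of 18 Ly6 and Slurp family genes Lynx1 and Gpihbp1 rose and Lypd2 fell. With buccal mucosa replicate 1 alone, 4 fell: Lypd2, Lypd6b, Slurp1 and Slurp2. Gpihbp1, which carries lipoprotein lipase to the capillary wall, had 9.58 and 38.6 CPM in buccal mucosa, against 0.534 and 0.745 CPM in hard palate. None of 23 nerve, 6 red blood cell, 17 stress or 14 mitochondrial genes was called by edgeR. Abundant mitochondrial genes such as mt-Nd1 reached or neared the UMI limit, so their differences may be compressed.

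**Figure D5:**
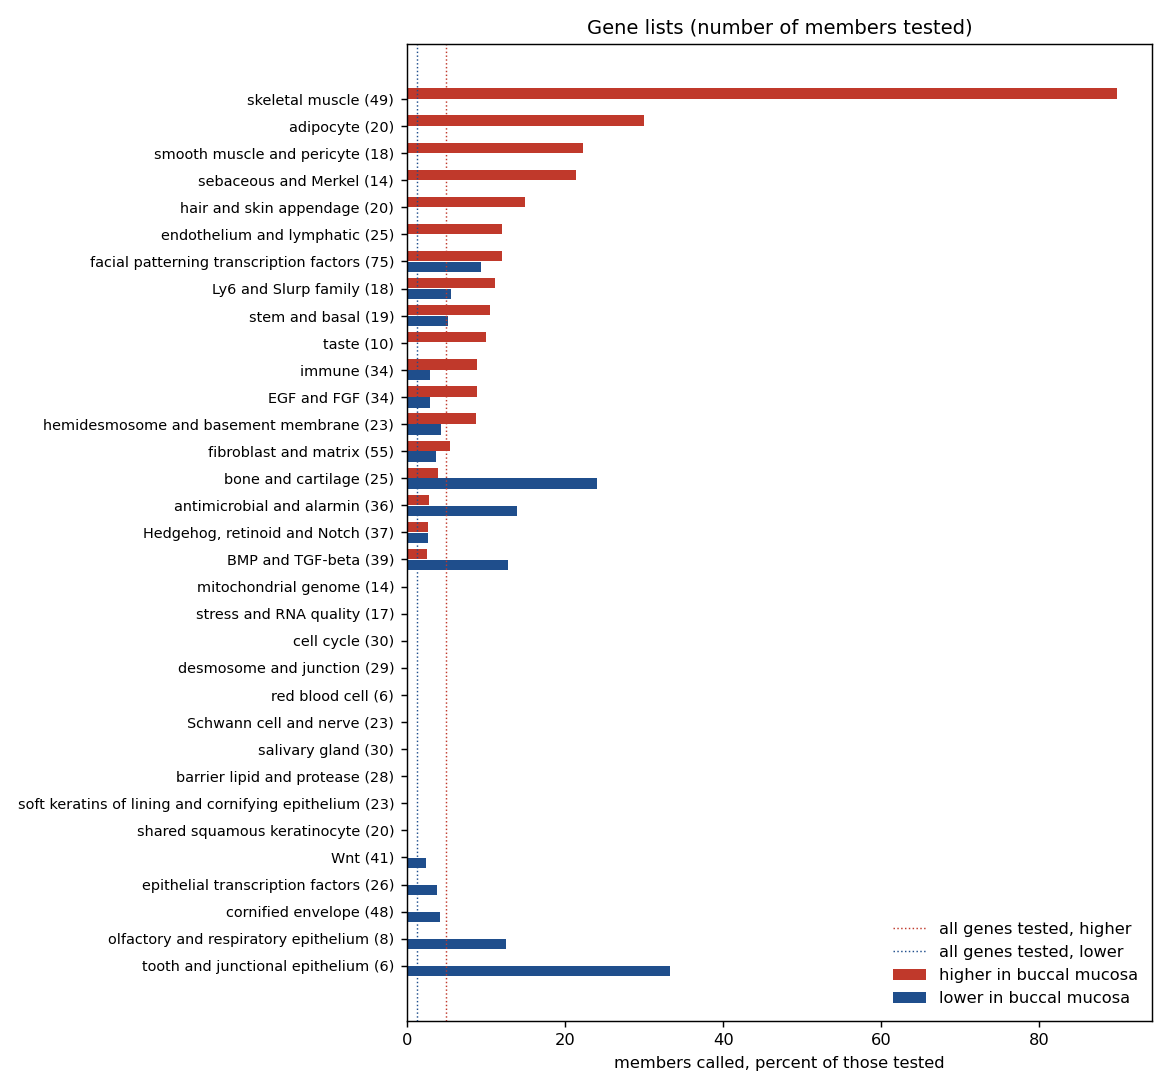
Percent of tested members of each of 33 gene lists that were higher or lower in buccal mucosa than in hard palate over all 20 sections, with the number tested in brackets; dotted lines mark the percent over all genes tested. Skeletal muscle stands at 89.8% higher, and tooth and junctional epithelium at 33.3% lower of 6 genes.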

How the data were processed

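Per the labels' protocols, each section's RNA was sequenced by CEL-seq2, which reads 3′ ends tagged with UMIs, on a NextSeq500. The submitters' processing notes list STAR 2.7.9a, Trim Galore 0.6.10 and, as genome build, GRCm38. For the counting program, its use of strand and its treatment of shared reads, the sources used here give nothing. The deposited tables give, per gene and section, UMI counts, read counts, and transcript numbers that are estimated counts derived from the UMIs by a collision formula, which the values match. UMI counts were used unless stated, and estimated counts were rounded. The UMI tables held 33549 entries; 413 named several genes and stayed in library sizes and tests without being named.

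UMI counts were summed over sections per sample, reduced to genes that pass filterByExpr and normalised by TMM. The test was the quasi-likelihood test of edgeR 4.0.16 in R 4.3.3, with p adjusted by Benjamini-Hochberg over all genes tested. All 8 samples shared 1 estimate of the spread, with 4 residual degrees of freedom. CPM of single genes over all sections are TMM-scaled, as are those of Tbx15, Tnn, Rbp7 and Lrmp in sections 1 to 5. Other CPM of section groups, single sections and list sums use the plain total. This includes Runx2 and Cxcl1 in sections 1 to 5. Standard errors were derived from the F statistic. The script was tested on simulated data. A count of 0 allows up to 3 UMIs, for counting error only.

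Named genes are the 10 largest rises and falls with at least 50 CPM in the higher site and no overlap in both section sets, up to 4 genes of smallest p a list, patterning and epithelial factors of at least 5 CPM without overlap, and 12 keratins; not all are printed, and a few items are not reported here. Others were added after their values were seen: the remaining called factors, and Six3, Nkx2-3, Barx2, Odaph, Cxcl3, H19, Lrmp, Bmp2, Id1 to Id3, S100a8, Cxcl2, the myogenic factors, Pygm, Chrna1, Krt23, Krt36, Krt75, Smpd3, Klk7, Dsc1, Flg, Crnn, the Lce1, Lypd and Slurp genes, Muc5b, Adipoq and the bone and cartilage genes that fell. The members and lists were chosen with earlier results of these data known. DESeq2 1.42.0 and the settings below were alternatives. The replicate numbers were not used to pair the samples, and the labels do not say whether same-numbered samples share an animal. Replicate differences of the 2 sites correlated at r = 0.13 over all sections and −0.07 in sections 1 to 5, which does not settle it. Those of dorsal and ventral tongue, which are not part of the contrast, correlated at 0.53 and 0.31.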

Additional observations from a re-analysis of the deposited data

How the results depend on the processing

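Over all sections the 923 genes higher and 231 lower in buccal mucosa became 861 and 246 with RLE scaling, 889 and 234 in reads and 931 and 240 in estimated transcripts. They became 1970 and 1202 with no filter on low counts, and 1853 and 881 with DESeq2. With only the 4 buccal and palate samples edgeR called 0 and 0 at 2 residual degrees of freedom, where 2656 genes had an unadjusted p under 0.05. Leaving out 1 sample of the 8 at a time gave 170 to 3162 higher and 18 to 2898 lower. Those extremes came without hard palate replicate 1 (170 and 18) and without buccal mucosa replicate 1 (3162 and 2898). The counts were 190 and 51 without hard palate replicate 2, and 403 to 413 and 47 to 52 without a tongue sample; where an arm keeps 1 sample, it is assumed to vary like the other groups. The cause was not tested. The numbers became 1 and 2 in sections 1 to 5, 4 and 2 in the 5 sections of highest keratinocyte score, and 261 and 63 in those sections without buccal mucosa replicate 2, a setting chosen after seeing the data. In that last setting Fgf9 turned round, to −0.44 on the log2 scale. A replicate block gave 616 and 108 over all sections, and 0 and 0 in sections 1 to 5 (2489 genes at an unadjusted p under 0.05); the numbers alone are shared, so nothing is read from it.

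In sections 1 to 5 the 1 higher and 2 lower genes became 1227 and 588 with no filter, 962 and 274 with DESeq2, and 0 and 0 by edgeR in reads and with the 4 samples only, where 2948 and 1558 genes had an unadjusted p under 0.05. Leaving out 1 sample gave 0 to 2616 higher and 0 to 2322 lower, with the highest counts without buccal mucosa replicate 1 and 224 and 60 without replicate 2. Leaving out any palate or tongue sample gave 0 by edgeR in both directions, with 1513 to 2549 genes at an unadjusted p under 0.05. The scaling moved the median of all genes by −0.04 and 0.02 on the log2 scale. Depth was lowest in buccal mucosa replicate 2, and 1 section of buccal mucosa replicate 1 held 22343 UMIs.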
